A study of Bos taurus with 38 samples.

Results

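Glutathione S-transferase alpha 1, encoded by GSTA1 (ENSBTAG00000021516), was followed through the cumulus-oocyte complexes of cattle, as 1 of the 27607 gene identifiers counted in each compartment. The gene was chosen by its oocyte counts, which correlated with more cumulus genes than those of any other oocyte gene, so its oocyte values, and the ratio of oocyte to cumulus values, are described here without a test. The complexes were aspirated from antral follicles of ovaries collected at an abattoir, from animals whose breed, age and number are not given in the sources used here. Each complex was stained with brilliant cresyl blue (BCB), a dye that growing oocytes turn colourless. An oocyte that stayed blue was classed as BCB positive, the class that the study takes as fully grown, and an oocyte that lost the colour as BCB negative, taken as still growing. RNA was sequenced from the single oocyte and from its own group of cumulus cells in 9 BCB positive and 10 BCB negative complexes, which gave 38 libraries. All complexes were exposed to the dye.

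The glutathione transferases couple the tripeptide glutathione to reactive compounds and so make these easier to export. Alpha class enzymes also reduce lipid peroxides and can act as isomerases in the synthesis of steroid hormones, and they are abundant in steroid-producing tissue. Cumulus cells are the granulosa-derived cells that surround the oocyte, and their projections cross the zona pellucida to reach it through gap junctions. Through these contacts they supply small molecules to the oocyte, and their own glutathione metabolism is known to support that of the oocyte. In the cattle annotation of the ARS-UCD2.0 assembly, used here for gene order only, GSTA1 lies between GSTA2 and GSTA5, and GSTA3 and GSTA4 follow. Alpha class genes are related in sequence, so reads that fit more than 1 of them may have been lost or assigned to a neighbour by the counting, and the level of GSTA1 is uncertain to that extent.

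The number in the title of a sample names its complex, and these numbers fall into 3 runs, whose meaning the labels do not give. Complexes 6 to 24 held 3 BCB positive complexes and 1 BCB negative complex, complexes 65 to 74 held 6 and 3, and complexes 86 to 91 were 6 BCB negative complexes, so that in the last run the run and the class cannot be told apart. Library totals ran from 1103200 to 10430148 counts in cumulus cells and from 8886070 to 29810354 in oocytes. Levels are given as CPM, counts per 1000000 counts of the library. In cumulus cells the median total was 5853816 in BCB positive and 2252271 in BCB negative complexes. The 12 cumulus markers with an identifier (of 14 listed) summed to between 10376 and 38400 CPM in the cumulus libraries, and the oocyte markers ZP2, ZP3 and DAZL (of 11 listed) to between 0.108 and 66.5 CPM. In the oocyte libraries the oocyte markers summed to between 2767 and 5095 CPM and the cumulus markers to between 8.80 and 4132 CPM. No library was a copy of another.

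GSTA1 was an abundant transcript of cumulus cells. Its level was 2649 ± 990.1 CPM (SD, n = 19) in cumulus cells, with a median share of 0.264% of all counts and a range from 0.0459% to 0.392%. It exceeded the level in the oocyte of the same complex in 19 of 19 complexes. The cumulus libraries held 255856 GSTA1 counts in all, and the lowest of them, complex 6, held 813.

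In BCB positive complexes the cumulus level was 3432 CPM in complex 17, 2925 in complex 19, 2577 in complex 24, 3781 in complex 69, 2638 in complex 70, 2273 in complex 71, 2952 in complex 72, 3368 in complex 73 and 3459 in complex 74. These 9 libraries lay close together, with a mean of 3045 ± 496.4 CPM (SD, n = 9) and a highest value 1.66 times the lowest. In BCB negative complexes it was 459 CPM in complex 6, 3726 in complex 65, 2034 in complex 66, 1709 in complex 68, 1432 in complex 86, 2451 in complex 87, 3845 in complex 88, 1141 in complex 89, 3922 in complex 90 and 2209 in complex 91. These 10 libraries had a mean of 2293 ± 1202 CPM (SD, n = 10), and their highest value was 8.55 times the lowest. The classes overlapped: 6 BCB negative libraries lay below the range of the BCB positive ones, 2 inside it and 2 above it, and the difference in spread was not tested.

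**Figure D1:**
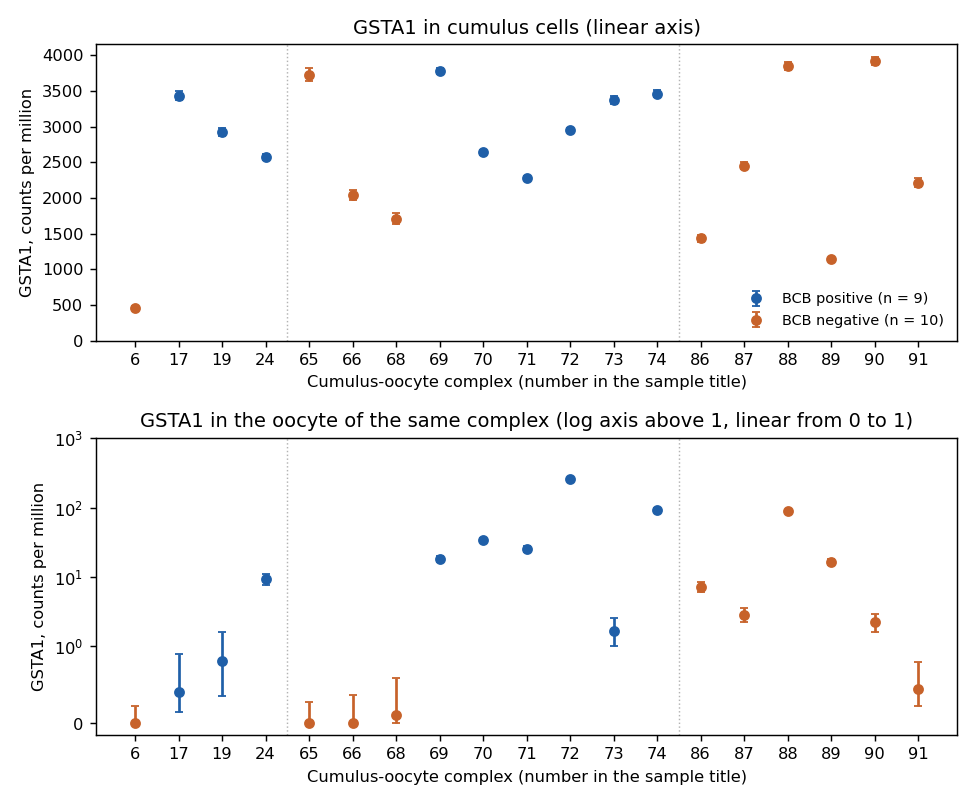
GSTA1 in CPM for each complex, in cumulus cells (top, linear axis) and in the oocyte of the same complex (bottom, logarithmic above 1 and linear from 0 to 1), with bars for exact 95% binomial (Clopper-Pearson) intervals that cover counting error only and dotted lines between the runs of complex numbers. Cumulus values lie between 459 and 3922, while oocyte values run from 0 to 257 and both classes are found at high and low oocyte values.

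The study asked whether transcript abundance in cumulus cells differed with the BCB class of the oocyte. For GSTA1 it could not be shown to differ, and the size of the difference depended on the scale. On log2(CPM + 1) the mean was higher in BCB positive complexes by 0.63, with a two-sided exact permutation p of 0.0608 over 92378 splits and a Benjamini-Hochberg adjusted p of 0.183 over 3 comparisons. On the same measure with TMM scaling, which also corrects each library for its composition, it was higher by 0.11 (exact permutation p = 0.763). The arithmetic means of TMM-scaled CPM lay in the other order, at 2531 ± 484.6 CPM (SD, n = 9) and 2725 ± 1412 CPM (SD, n = 10) in BCB positive and BCB negative complexes. The quasi-likelihood test of edgeR on TMM-scaled counts then gave a log2 fold change of BCB positive over BCB negative of -0.11 (SE 0.28, 95% interval -0.69 to 0.47, adjusted p = 0.872). With library totals alone it was 0.41 (edgeR adjusted p = 0.222), but on that scale the median of all genes also lay at 0.459. The TMM factors that set these scales apart ran from 1.09 to 1.27 in BCB positive and from 0.542 to 1.16 in BCB negative cumulus libraries.

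The single complexes weighed on this comparison. Leaving out 1 library at a time moved the difference on log2(CPM + 1) between 0.39, without complex 6, and 0.74, without complex 90, and the exact permutation p between 0.107 and 0.0227. It passed 0.05 unadjusted without complex 65, 88 or 90, the BCB negative complexes with the highest levels. In the run from 65 to 74, where both classes are found, the level was 3079 ± 562.2 CPM (SD, n = 6) in BCB positive complexes and averaged 2490 CPM over the 3 BCB negative ones. The difference there was 0.37 (exact permutation p = 0.226, adjusted 0.339, where 84 splits allow no p under 0.0119). It was 0.70 without complex 65 (exact permutation p = 0.0357) and -0.43 on TMM-scaled CPM (exact permutation p = 0.202). Within the BCB negative class, the cumulus level of complexes 65 to 74 differed from that of complexes 86 to 91 by 0.06 (exact permutation p = 0.940, adjusted 0.940), with means of 2490 and 2500 CPM. On TMM-scaled CPM the difference was 0.47 (exact permutation p = 0.393), with means of 3569 and 2659 CPM.

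**Figure D2:**
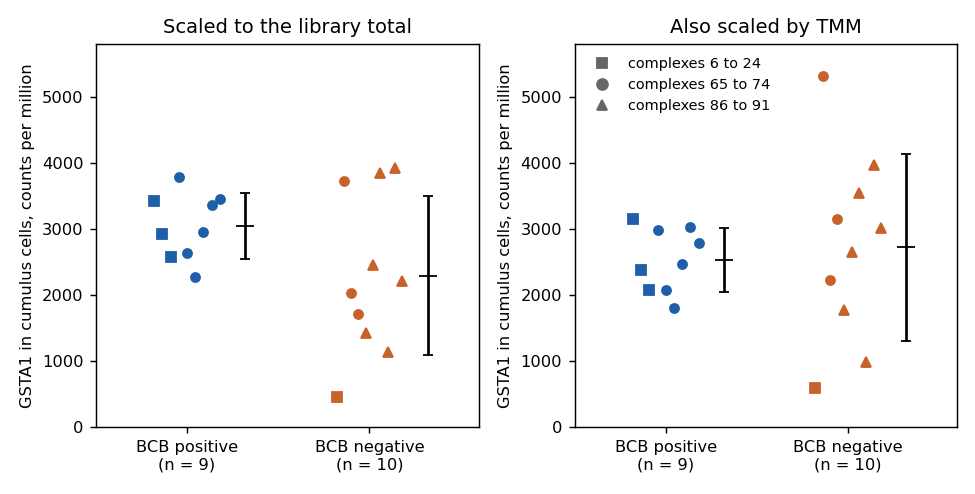
GSTA1 in cumulus cells, in CPM, for each library by BCB class and run of complex numbers, scaled to the library total (left) and also by TMM (right), with the mean and SD of each class as a black mark and bar. Means are 3045 and 2293 on the left and 2531 and 2725 on the right, so the order of these arithmetic means turns with the scale, while the mean of log2 values stays higher in BCB positive complexes on both, and the BCB negative libraries spread from 589 to 5319 on the right.

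Beside this comparison stand other measures of the same cumulus libraries. The summed cumulus markers ran from 20604 to 38400 CPM in BCB positive and from 10376 to 28557 CPM in BCB negative complexes, and the 3 oocyte markers from 0.108 to 1.82 CPM and from 0.661 to 66.5 CPM. Counts on 13 mitochondrially encoded protein genes made up 1.66% ± 0.696 (SD, n = 9) and 8.24% ± 5.01 (SD, n = 10). Their part in the GSTA1 level was not tested. In bulk samples such as these, fewer cells of a type and less RNA per cell cannot be told apart. Over the 19 cumulus libraries, log2(CPM + 1) of GSTA1 had a Pearson's r of 0.339 with the log10 library total (permutation p = 0.156, adjusted 0.156 over 2 relations) and a Spearman's rho of 0.309 (permutation p = 0.197, adjusted 0.197). Leaving out the 2 complexes with the most extreme totals gave an r of 0.297. The BCB positive complexes alone gave -0.356, the BCB negative ones 0.173 and complexes 65 to 74 0.403. With the mitochondrial share r was -0.360, at a permutation p of 0.125 that became 0.156 after adjustment, and rho was -0.368, at a permutation p of 0.122 that became 0.197. Leaving out the 2 complexes with the most extreme shares gave an r of -0.378. The BCB positive complexes alone gave 0.0720, the BCB negative ones -0.114 and complexes 65 to 74 -0.521. On TMM-scaled CPM both signs turned, to an r of -0.0841 with the library total (permutation p = 0.737) and of 0.101 with the mitochondrial share (permutation p = 0.687). Neither relation passed the test on either scale.

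In oocytes GSTA1 was a trace in most libraries and plain in a few. BCB positive oocytes held 6 counts in complex 17, 8 in complex 19, 122 in complex 24, 373 in complex 69, 929 in complex 70, 360 in complex 71, 6229 in complex 72, 19 in complex 73 and 828 in complex 74. BCB negative oocytes held 0 counts in complexes 6, 65 and 66, 1 count in complex 68, 170 in complex 86, 76 in complex 87, 1687 in complex 88, 492 in complex 89, 43 in complex 90 and 11 in complex 91. The sum was 11354 counts, of which complex 72 alone held 54.9%. The 3 oocytes without a count allow, at a limit of 3 counts, a level of up to 0.184 CPM in complex 6, 0.224 in complex 65 and 0.303 in complex 66. The upper ends of their two-sided exact 95% binomial intervals, which the plot of both compartments draws, lie higher, at 0.226, 0.275 and 0.373 CPM.

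As CPM the oocyte level was 48.9 ± 83.2 (SD, n = 9) in BCB positive complexes, with a lowest value of 0.410, a median of 18.3 and a highest of 257. In BCB negative complexes it was 11.7 ± 27.3 (SD, n = 10), with a lowest value of 0, a median of 1.32 and a highest of 87.9. The SD exceeded the mean in both classes, and their ranges overlapped. Above 10 CPM lay 7 oocytes, of which 5 were BCB positive and 2 BCB negative. Within complexes 65 to 74 the 6 BCB positive oocytes held 19 or more counts each and the 3 BCB negative ones 0, 0 and 1. The oocytes of complexes 86 to 91, all BCB negative, held between 11 and 1687 counts. Run and class cannot be told apart there, so no reading of the class as a whole is drawn from these counts. The oocyte level and the cumulus level of the same complex had a Spearman's rho of 0.302 over 19 complexes, given as a description of CPM values.

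The oocyte level was then expressed as a percentage of the level in the cumulus cells of the same complex. It was 0.0120% in complex 17, 0.0278% in complex 19, 0.362% in complex 24, 0.483% in complex 69, 1.31% in complex 70, 1.10% in complex 71, 8.70% in complex 72, 0.0491% in complex 73 and 2.69% in complex 74, all BCB positive. Among BCB negative complexes it was 0.50% in complex 86, 0.115% in complex 87, 2.29% in complex 88, 1.45% in complex 89, 0.0560% in complex 90 and 0.020% in complex 91. In complex 68 it was 0.0062%, from 1 count, whose exact 95% interval of the oocyte level ran from 0.0027 to 0.593 CPM. Complexes 6, 65 and 66, with 0 counts, allow up to 0.0400%, 0.0060% and 0.0149% at the limit of 3 counts. The median over the 19 complexes was 0.115%, with 0.0854% to 0.238% when any 1 complex was left out. The percentage ranged over several orders of magnitude while the cumulus level itself stayed within 8.55-fold.

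To see whether other cumulus transcripts varied alike, 19 genes were set beside GSTA1, those with a mean of at least 500 CPM in cumulus cells and a median oocyte level under 0.5% of the median cumulus level. They include INHA and INHBA, which encode inhibin and activin subunits, FST for the activin-binding protein follistatin, VIM for vimentin, CCND2 for cyclin D2, SRGN for the proteoglycan core protein serglycin and HSD17B1 for an estrogen-forming dehydrogenase. Their median percentage in a complex ran from 0.0138% in complex 17 to 10.7% in complex 72. In the oocytes of complexes 6, 65, 66 and 68, where GSTA1 had 0, 0, 0 and 1 count, that median was 0.113%, 0.0173%, 0.0271% and 0.0527%. At the limit of 3 counts, GSTA1 could reach 0.0400% in complex 6, 0.0060% in complex 65 and 0.0149% in complex 66. Across the 19 complexes the GSTA1 percentage and this median had a Spearman's rho of 0.938 and a Pearson's r of 0.984, as a description, since both share the same libraries and their totals. Complex 72, at 8.70% for GSTA1 and 10.7% for the median, lay far above the rest and weighs on Pearson's r. The next highest values were 2.69% for GSTA1, in complex 74, and 4.51% for the median, in complex 88.

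In 15 complexes GSTA1 had more than 3 oocyte counts, so that its percentage could be read against the 19 genes. It lay inside their range in 10 of these complexes, below all 19 genes in complexes 73, 87, 88 and 91, and above all 19 in complex 71. The GSTA1 percentage divided by the median of the 19 genes ran from 0.294 in complex 91 to 2.53 in complex 71, with a median of 0.727, and it was below 1 in 13 of the 15 complexes. These 15 were chosen by the GSTA1 count itself. Over all 19 complexes the median was 0.663, and the value was below 1 in 17. In complex 71 the oocyte held 360 GSTA1 counts, where the median of the 19 genes would have given 142, and the next highest complex was complex 86, with 1.23 times the median. Of the 12 cumulus markers in the oocyte of complex 71, 3 stood above the GSTA1 percentage, CYP19A1 at 4.39%, AMHR2 at 3.18% and NR5A2 at 1.16% of their cumulus level, and the median of the 12 was 0.584%. As CPM these 3 stood there at 3.62, 0.418 and 7.03, beside medians over oocytes of 4.83, 0.174 and 7.03. GSTA1 stood there at 25.1 CPM, beside a median over oocytes of 2.81. All 12 cumulus markers had their highest oocyte level in complex 72, among them the FSH receptor gene FSHR at 51.3 CPM, which had a median of 0.765 CPM over oocytes.

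**Figure D3:**
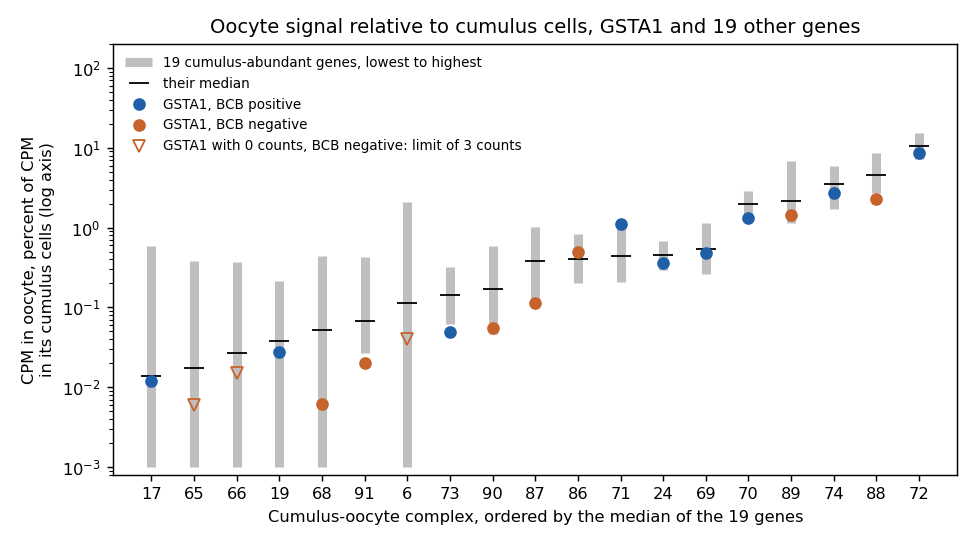
Level in the oocyte as a percentage of the level in its cumulus cells (log axis) for GSTA1 (circles, with open triangles at the limit of 3 counts where GSTA1 had 0) and for 19 other genes abundant in cumulus cells (grey bars from lowest to highest, which end at the lower edge where a gene had 0 counts, and a black mark for the median). With more than 3 counts GSTA1 runs from 0.0120% to 8.70%, above its bar in complex 71 and below it in complexes 73, 87, 88 and 91, and complex 68 rests on 1 count.

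Genes were ranked by how alike their levels over libraries were to those of GSTA1 in each compartment. Among genes with a symbol, the highest Spearman's rho over the 19 cumulus libraries was 0.760 for DPYSL2, followed by 0.756 for GPX1, 0.726 for CITED1, 0.725 for HSD17B1 and 0.718 for INHA, on TMM-scaled log2 values. Among all 12312 other genes these stood at ranks 11, 13, 19, 21 and 23. The 10 identifiers before DPYSL2 had no symbol, the first of them being ENSBTAG00000006546, with a rho of 0.939. It averaged 129 CPM in cumulus cells and 1.2 CPM in oocytes. Over the 19 oocyte libraries the highest rho was 0.968 for SRGN, then 0.961 for HSD17B1, 0.960 for VIM, 0.951 for FST and 0.943 for CCND2. HSD17B1 was thus among the 5 genes with a symbol in both compartments, at rank 21 of all genes in cumulus cells and 2 in oocytes. Of the 20 genes most like GSTA1 in oocytes, 14 belonged to the 19 cumulus-abundant genes above, and of the 20 most like it in cumulus cells 1 did. The points behind a coefficient share the library and its depth, and all the genes were ranked by it, so the values carry no test.

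The study correlated each oocyte gene with each cumulus gene over complexes after division by the TMM factor alone, without the library total. On that scale oocyte GSTA1 reached a Pearson's r of at least 0.85 with 735 of 12313 cumulus genes and had a median r of 0.764, which is the pattern for which it was chosen. In the other direction, GSTA1 in cumulus cells had a median r of 0.162 with the 12753 oocyte genes and reached 0.85 with 0 of them, the highest r being 0.713, with GSTA1 in oocytes. When the values were also scaled to the library total, the median r of oocyte GSTA1 with cumulus genes was 0.0577 and 0 genes reached 0.85. The coefficient of GSTA1 in oocytes with GSTA1 in cumulus cells was then -0.0389. Within BCB positive complexes 0 cumulus genes reached 0.99 with oocyte GSTA1, and within BCB negative complexes 0 reached 0.98, on either scale.

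Genes of glutathione metabolism and of steroid synthesis were taken from 5 lists to place GSTA1 among its neighbours in function. Of 85 listed genes 36 could be tied to an identifier, and all 36 passed the filter on low counts in cumulus cells. They are not a fair draw of their lists, since the names came from the supplementary tables of the study, which favour genes that it had found to differ or correlate. In cumulus cells 0 of the 36 differed between the BCB classes at an adjusted p under 0.01 with edgeR, and 3 did so under 0.05, where 2.92% of all genes and 4.76% of those with a symbol passed. A log2 fold change above 0 was found in 27 of the 36, beside 48.6% of all genes and 62.6% of those with a symbol. Over all genes 69 of 12313 passed 0.01, which is 0.56%, with 5 higher (0.0406%) and 64 lower (0.52%) in BCB positive complexes, and 43 of the 4492 genes with a symbol passed, which is 0.957%. That background is unsteady: it was 6 genes without complex 24 and 160 without complex 89, and changed by more than 1.5 times with the loss of any library other than those of complexes 87 and 90. With library totals alone 1704 genes passed, 1601 of them higher in BCB positive complexes, and 14 list genes did, all of them higher.

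Among the other glutathione transferases, 6 of 20 listed genes could be measured, with a median log2 fold change of -0.04 beside -0.01 for all genes. GSTM1, of the mu class, had the lowest value. Its TMM-scaled level in BCB positive cumulus cells ran from 3.53 CPM, in complex 72, through a median of 17.3 to 28.4 CPM. In BCB negative cumulus cells it ran from 7.65 CPM through 47.0 to 179 CPM, in complex 68, and the classes overlapped. The log2 fold change was -1.73 (SE 0.45), with an adjusted p of 0.041 from edgeR, which did not pass 0.01. On plain CPM the distance between the classes was smaller, with 20.2 ± 8.70 CPM (SD, n = 9) and 43.3 ± 24.99 CPM (SD, n = 10), beside 16.9 ± 7.68 and 58.6 ± 49.0 TMM-scaled CPM. The others were GSTZ1 of the zeta class, also an enzyme of tyrosine breakdown, at 0.54 (SE 0.18, edgeR adjusted p = 0.0969), GSTT1 of the theta class at 0.21, GSTP1 of the pi class at 0.02, the kappa class gene GSTK1 at -0.10 and the alpha class gene GSTA4 at -0.19. In oocytes GSTA4 and GSTP1 averaged 24.1 and 25.2 CPM.

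Glutathione supply was represented by 9 of 19 listed genes, with a median log2 fold change of 0.24. GCLC, the catalytic subunit of the enzyme that limits glutathione synthesis, was at a TMM-scaled 1460 ± 205.8 CPM (SD, n = 9) in BCB positive and 1578 ± 508.7 CPM (SD, n = 10) in BCB negative cumulus cells, a log2 fold change of -0.11 (SE 0.16, edgeR adjusted p = 0.748). On plain CPM the order of the classes was the opposite, with 1762 ± 277.6 CPM (SD, n = 9) and 1366 ± 577.1 CPM (SD, n = 10). Its regulatory subunit GCLM was at -0.03 and the mitochondrial glutaredoxin gene GLRX5 at 0.19. For the removal of peroxides 6 of 22 genes could be measured. GPX1, the cytosolic glutathione peroxidase, was at a TMM-scaled 772.6 ± 162.8 CPM (SD, n = 9) and 834.1 ± 244.8 CPM (SD, n = 10), with a log2 fold change of -0.11, and on plain CPM its order was also the opposite, with 927.4 ± 179.3 CPM (SD, n = 9) and 703.7 ± 249.4 CPM (SD, n = 10). The log2 fold change was 0.22 for GPX4, which reduces phospholipid hydroperoxides, and -0.32 for the thioredoxin gene TXN. Among 5 of 12 genes of the NRF2 pathway and of NADPH formation, PGD of the pentose phosphate pathway was at 0.47 and the heme oxygenase gene HMOX1 at 0.37.

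Steroid synthesis was represented by 10 of 12 listed genes, of which 9 had a log2 fold change above 0, beside 62.6% of all genes with a symbol, and their median was 0.47. FDXR, the reductase that feeds electrons to mitochondrial steroid hydroxylases, ran from 227 through a median of 291 to 437 TMM-scaled CPM in BCB positive and from 94.9 through 169 to 312 CPM in BCB negative cumulus cells. The ranges overlapped, and its log2 fold change was 0.78 (SE 0.18, edgeR adjusted p = 0.018). STAR, which carries cholesterol into mitochondria, went the other way, from 1.29 through 2.55 to 4.10 CPM against 2.05 through 5.91 to 30.6 TMM-scaled CPM, with a log2 fold change of -1.70 (SE 0.45, edgeR adjusted p = 0.0419). STAR averaged 542 CPM in oocytes, and the oocyte markers in BCB negative cumulus libraries summed to as much as 66.5 CPM. Their part in the STAR values was not tested. HSD17B1 was at 0.27 and NR5A2, a nuclear receptor of granulosa cells, at 0.50.

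**Figure D4:**
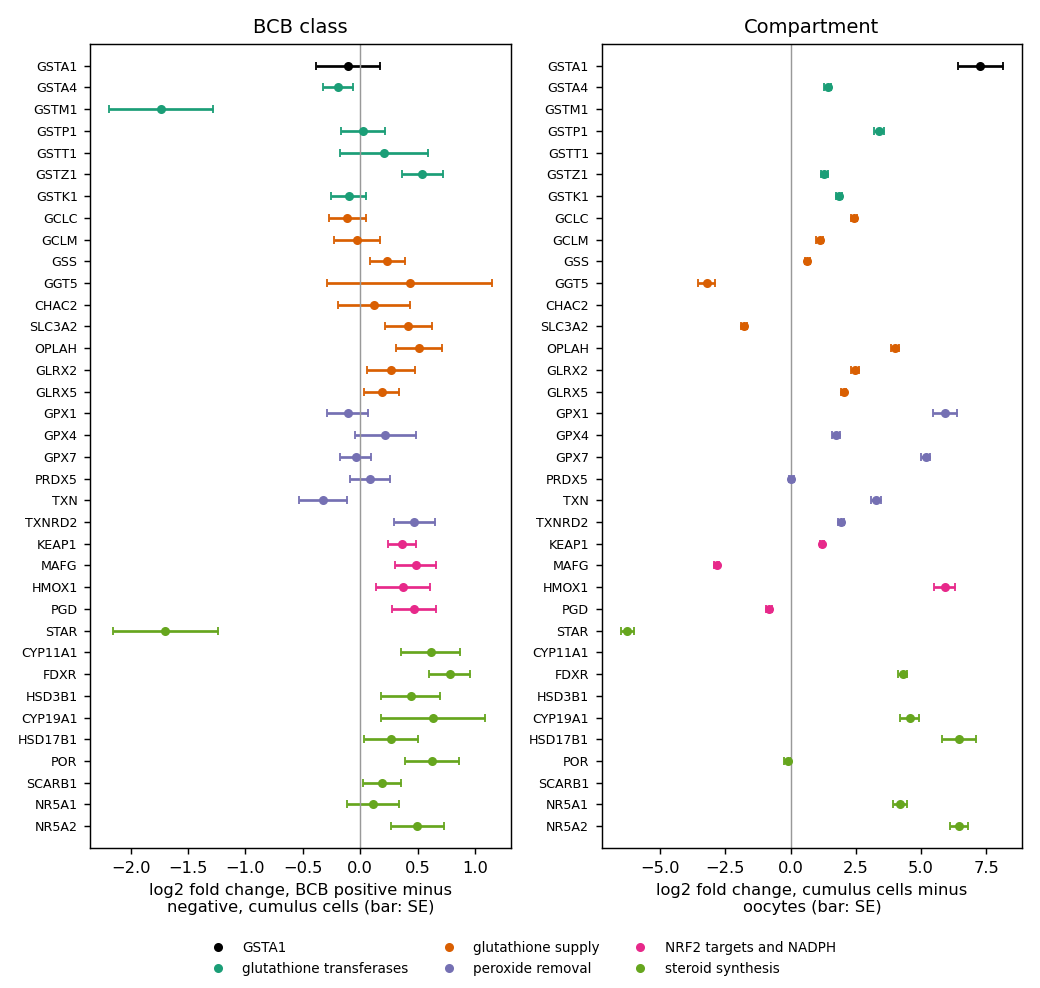
Log2 fold changes with their SE from edgeR for GSTA1 and the reported genes of 5 lists, BCB positive minus BCB negative in cumulus cells (left) and cumulus cells minus oocytes (right, for genes kept in both). On the left GSTM1 and STAR lie near -1.7 and GSTA1 near 0, and on the right GSTA1 has the highest value and STAR the lowest.

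In oocytes edgeR found 0 of 12753 genes past 0.01 between the classes, with 711 at an unadjusted p under 0.05 and 1 past 0.01 by DESeq2, and 0 of the 30 list genes kept there passed. With the run of complexes as a covariate 1546 genes had an unadjusted p under 0.05, and in complexes 65 to 74 alone 2654 did. None of these passed 0.01 after adjustment with edgeR, where the lowest adjusted p was 0.169 and 0.0474. Between the compartments, by contrast, 28 of the 30 list genes kept in both differed at 0.01 with edgeR, 23 higher in cumulus cells and 5 higher in oocytes, with adjusted p-values of at most 5.21e-07. Over all 10281 genes 42.7% were higher in cumulus cells and 42.8% higher in oocytes, or 3229 and 5503 genes with library totals alone. Among genes with a symbol these shares were 45.9% and 39.7%. The fit with the complex as a replicate block, which pairs each oocyte with its own cumulus cells, gave 28 as well.

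Each of the 4 glutathione transferases kept in both compartments was higher in cumulus cells, with log2 fold changes of 3.39 for GSTP1, 1.87 for GSTK1, 1.41 for GSTA4 and 1.29 for GSTZ1. For GSTA1 the value was 7.28 (SE 0.88), given without a test, and 9.60 with the replicate block. GCLC was higher in cumulus cells by 2.43 and GCLM by 1.11, while SLC3A2, a subunit of amino acid transporters, was at -1.80 and GGT5, which cleaves glutathione conjugates, at -3.22. GPX1 was at 5.92, TXN at 3.28 and GPX4 at 1.75, and PRDX5, a peroxiredoxin, did not pass the test, with 0.03 (SE 0.11, edgeR adjusted p = 0.772). HMOX1 was at 5.90, whereas PGD was at -0.83 and MAFG, a small MAF partner of NRF2, at -2.84. Of 7 steroid genes HSD17B1 and NR5A2 were both at 6.45 and FDXR at 4.29, POR did not pass, and STAR was at -6.26. These compartment values also count any cumulus RNA that the oocyte libraries held.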

How the data were processed

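RNA of 19 single oocytes and of the cumulus cells of each was amplified with oligo-dT priming and template switching and sequenced with paired ends. The authors trimmed the reads, aligned them to ARS-UCD1.2 with HISAT2 (2.1.0 per the labels), removed poor alignments and duplicates, and counted reads on Ensembl genes with featureCounts (1.6.0). The deposited values are these raw counts, with 1 table per compartment. PCR copies were not told apart by molecular identifiers, so intervals and limits cover counting error only.

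Genes with more than 2 CPM in at least 9 of 19 libraries of a compartment were kept, which left 12313 in cumulus cells and 12753 in oocytes. Main tests were edgeR 4.0.16 (R 4.3.3) quasi-likelihood tests with TMM and robust dispersions at a Benjamini-Hochberg adjusted p of 0.01, without covariates. Single values were compared by two-sided exact permutation, and relations by 100000 permutations, or exactly under 10 complexes. Intervals of CPM are exact binomial (Clopper-Pearson) ones at 95%. DESeq2 1.42.0, other scalings, filters, covariates and each library left out served as alternatives. In counts simulated from the libraries with 200 genes changed 4-fold, edgeR recovered 92.5% in cumulus cells with 0 false calls among 12313 genes and 98% in oocytes with 3 false calls among 12753. Apart from the changed genes and random spread, the simulated libraries of a compartment differed in their totals alone. These figures therefore do not cover differences in composition such as those between the real cumulus libraries. Python 3.11.15, scipy 1.17.1, numpy 2.4.6, pandas 2.3.3 and matplotlib 3.10.9 were also used.

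The gene, the lists, the 19 comparison genes and the tests were chosen with earlier results of these data known. Named genes were GSTA1, the measured glutathione transferases, from each other list the 3 highest in cumulus cells and any called, and the 5 named genes most like GSTA1 in each compartment. STAR, SLC3A2, GGT5, PRDX5, MAFG, POR, FSHR, CYP19A1, AMHR2 and ENSBTAG00000006546 were named after their values were seen. A list gene that this rule covers is not reported here by name. Symbols came from supplementary tables of the study, which hold them for 4934 of 27607 identifiers. Of the markers of other cell types, VWF (endothelium) ran up to 16.3 CPM and HBA (red blood cell) up to 573 CPM in cumulus libraries, and those of theca and leukocytes had no symbol. VWF was higher in oocyte libraries, at 15.0 to 82.9 CPM, with a median of 45.5 beside 2.00 CPM in cumulus libraries. HBA ran up to 214 CPM in oocyte libraries. Oocyte and cumulus libraries with the same number come from 1 complex and thus from 1 animal. The deviations of such a pair from their group means correlated with r between -0.0132 and 0.212 (median 0.0674). P-values measure the spread between complexes, and how many shared an animal is not given in the sources used here. No sequence was read, and positions served only for the gene order in ARS-UCD2.0, since no annotation of ARS-UCD1.2 was used here.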

Additional observations from a re-analysis of the deposited data

Results flagged for a closer look

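Within each BCB class the highest and lowest complex were compared with the rest by Dixon's test in 8 groups of cumulus values, those of GSTA1, GSTM1, STAR and FDXR, and 2 stood apart, where chance gives about 1 in 20. That rate holds for normally distributed values, and the 2 flags rest on CPM, not on their logarithms. In BCB negative cumulus cells the TMM-scaled level of GSTM1 was 179 CPM in complex 68, beside 79.7 CPM in the next, and that of STAR was 30.6 CPM in complex 90, beside 14.3 CPM. Complex 68 also had the lowest cumulus total, of 1103200 counts, and the highest mitochondrial share, of 17.4%. Their part in the GSTM1 value was not tested.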

How the results depend on the processing

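No alternative brought GSTA1 in cumulus cells past the threshold between BCB classes, but its log2 fold change of -0.11 turned to 0.41 with library totals alone, and likewise in the likelihood-ratio test without TMM, to 0.0012 without a filter, and to 0.11 with the log10 library total as a covariate. It was -0.13 with DESeq2, and with edgeR in complexes 65 to 74 alone -0.51 (adjusted p = 0.388). Leaving out 1 library gave -0.24 to 0.045, above 0 only without complex 65. In permutation tests on log2(CPM + 1), leaving out 1 library gave 0.39 to 0.74 over all complexes, 0.14 to 0.70 within complexes 65 to 74, and -0.28 to 0.28 between the runs of BCB negative complexes. TMM-scaled CPM turned the difference within complexes 65 to 74 to -0.43, and r with the log10 library total to -0.0841 and with the mitochondrial share to 0.101.

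Genes called in cumulus cells numbered 69, and 360 at 0.05, 365 with DESeq2, 223 with the likelihood-ratio test and DESeq2, 1704 with library totals, 164 without a filter, 115 with the run of complexes and 2 with the log10 library total as a covariate. Leaving out 1 library gave 6 to 160. Called list genes numbered 0, and 3 at 0.05, 3 with DESeq2, 2 with both tests, 14 with library totals, 1 without a filter and 0 to 1 with 1 library left out. In oocytes 1 gene passed with DESeq2 and 0 otherwise. The cause of these moves was not tested. Between compartments all alternatives gave 28 to 34 list genes, 28 with the replicate block. The median GSTA1 percentage of 0.115 ran from 0.0854 to 0.238 with 1 complex left out and was 0.0681 with TMM over all 38 libraries and 0.804 on raw counts, and the median against the 19 genes from 0.644 to 0.798 with other limits. Depth limits the 3 oocytes with 0 GSTA1 counts to upper bounds, and 1 count in complex 68 leaves its level imprecise.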

Other observations

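Some oocyte values of GSTA1 lay far from the others of their class, and they are given without a test because oocyte values chose the gene. The level was 257 CPM in BCB positive complex 72, beside 93.2 CPM in the next complex, and 87.9 CPM in BCB negative complex 88, beside 16.5 CPM. As a percentage of the cumulus level, complex 72 stood at 8.70%, beside 2.69% in the next BCB positive complex. All 12 cumulus markers also had their highest oocyte level in complex 72, and their part in the GSTA1 value was not tested. The GSTA1 percentage divided by the median of the 19 cumulus-abundant genes was 2.53 in complex 71, beside 0.907 in the next BCB positive complex. With 3 other limits for choosing those genes, added after the data had been seen, the value of complex 71 was 2.48 to 3.0, and that of the highest other complex 0.867 to 1.02.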
